A study of Mus musculus with 8 samples.

Results

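A set of 10 genes, of the 55487 in the deposited expression table, are described here in mouse liver: Glul, Slc1a2, Oat, Rhbg, Lhpp, Slc13a3, Lgr5, Axin2, Tbx3 and Rnf43. They were taken by symbol, and each symbol matched 1 row. Glul, Oat, Slc1a2, Rhbg, Slc13a3 and Lhpp are known for expression in the hepatocytes next to the central vein, and Lgr5, Axin2, Tbx3 and Rnf43 as targets or parts of the Wnt pathway.

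The liver lobule is zoned along the flow of blood from the portal to the central vein. Hepatocytes at the portal end make urea from ammonia, and the last rows of cells before the central vein capture the ammonia that escapes by joining it to glutamate, which gives glutamine. That pericentral programme is known to depend on Wnt ligands and R-spondin3 from endothelial cells of the central vein, which stabilise beta-catenin in the neighbouring hepatocytes. CCl4 is made toxic by Cyp2e1, an enzyme of the same zone.

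RNA was sequenced from livers of male wild-type C57BL/6N mice in 4 groups. The first had a normal chow diet with tap water and intraperitoneal corn oil each week (called chow-oil, 3 libraries). The second had a western diet, a high-fat chow with sugar water holding fructose at 23.1 g/L and glucose at 18.9 g/L, with the same oil (western-oil, 2 libraries). The others received weekly CCl4 in place of oil, on normal chow (chow-CCl4, 2 libraries) or on the western diet (western-CCl4, 1 library). All groups were thus injected, and the sources used here give neither the age of the mice nor the CCl4 dose or treatment length. Libraries are numbered as in the labels, which do not say whether each came from its own animal, so p-values measure only the spread between them, which may be technical. Values are FPKM, fragments scaled to transcript length and to the mapped total, and a difference is the limma estimate on the log2(FPKM + 1) scale, which understates changes of low genes. A gene rose or fell here when its Benjamini-Hochberg adjusted p, over all 11514 genes tested, was below 0.05. Depth is unknown, since counts were not analysed here, so no counting error is given. Hepatocyte markers identified the tissue: 6 of 7 listed symbols matched, none was at 0, and their summed FPKM lay between 27242 and 52299 in each library. The major urinary protein genes held 15.6 to 30.6% of the FPKM sum with chow-oil and 2.33 to 8.61% in the other libraries. The median log2 difference of all tested genes was 0.22 for the western diet and 0.26 for CCl4 against chow-oil, and its cause was not tested. Median-of-ratios scaling, which sets the middle ratio of each library to 1, moved these medians to 0.00272 and 0.00255, and directions are given relative to it where they flip.

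Because the 2 genes that fell after CCl4 on the normal diet, Glul and Slc1a2, are described first, their promoter windows are shown from RefSeq (GRCm38.p6) to let the letters be read beside the values. Both are on the forward strand, and bases 250 to 101 before the start site are printed, 150 in each. Capitals mark ATCAAAG, the reverse complement of CTTTGAT, the core letters of the motif of TCF/LEF factors, which carry beta-catenin on DNA.

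Glul, chr1:153899679-153899828: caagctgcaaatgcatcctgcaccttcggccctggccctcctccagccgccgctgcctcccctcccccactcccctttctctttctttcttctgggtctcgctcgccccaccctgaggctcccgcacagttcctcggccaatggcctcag

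Slc1a2, chr2:102706188-102706337: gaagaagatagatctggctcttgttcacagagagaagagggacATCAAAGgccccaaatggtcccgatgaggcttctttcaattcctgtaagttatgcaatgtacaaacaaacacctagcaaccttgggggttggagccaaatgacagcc

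The Slc1a2 site began 207 bases before the start site, which itself lies 47779 bases inside the longest gene model. CTTTGAT was sought on both strands of the whole 300-base window, 250 before to 50 after the start. Of the 10 genes, 6 had a window (Glul, Slc1a2, Oat, Slc13a3, Axin2 and Rnf43), and Slc1a2 was the 1 with a match. Rhbg, Lhpp, Lgr5 and Tbx3 had no entry. Of the 27025 genes with a window, 4.29% held the letters (3.73% of 32851 windows). A match in 1 of 6 genes is thus a description and no evidence of a factor.

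After CCl4, the enzyme and the carrier that handle glutamine and glutamate around the central vein were lower in each exposed library than in every oil library. Glul, glutamine synthetase, which makes glutamine from glutamate and ammonia (ENSMUSG00000026473, chromosome 1, 153899944 to 153909723 on GRCm38, protein coding), had 200.1, 221 and 174 FPKM in the chow-oil libraries. With western-oil it had 352 and 339.8 FPKM, with chow-CCl4 42.9 and 72.3, and with western-CCl4 90.0. The groups did not overlap: western-oil was highest, then chow-oil, then western-CCl4, with chow-CCl4 lowest. On the normal diet, Glul fell with CCl4 from 199 ± 23.6 (SD, n = 3) to 57.6 ± 20.8 FPKM (n = 2), a log2 difference of -1.81 ± 0.25 (SE; limma adjusted p = 0.0227). Its call ended without chow-oil library 1 (limma adjusted p = 0.0578) or 2 (0.0902) and with no filter on low values (0.0672). It also ended without chow-CCl4 library 1, where the difference was -1.44. Without western-oil library 1 or 2 the call ended as well. Both lie outside this comparison, and leaving them out changed the estimate of the spread and not the difference.

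Slc1a2 is the sodium-driven glutamate carrier, also known as GLT-1 (ENSMUSG00000005089, chromosome 2, 102658659 to 102790784). Its FPKM was 12.9, 11.98 and 11.4 with chow-oil and 13.0 and 12.1 with western-oil. It was 0.301, near the lowest value above 0 in its library (0.254), and 1.67 with chow-CCl4, and 1.32 with western-CCl4. The 5 oil libraries thus lay within a narrow band whatever the diet, and the 3 CCl4 libraries lay far below it. On the normal diet Slc1a2 fell from 12.1 ± 0.739 (n = 3) to 0.985 ± 0.967 FPKM (n = 2), a mean 12.3 times lower, with a log2 difference of -2.81 ± 0.28 (limma adjusted p = 0.00518). That call held without each library in turn (limma adjusted p from 0.000871 to 0.0256) and ended with no filter (0.0597). With the replicate number as a block in the fit, Glul and Slc1a2 did not both pass on the normal diet. CCl4 was also set against oil with diet as an additive term. Among all 11514 genes tested, Slc1a2 then had the smallest p (-2.71 ± 0.22, limma adjusted p = 0.00606). Glul had the third smallest (-1.85 ± 0.20, limma adjusted p = 0.0208), and neither passed with the block. In that comparison the call of Slc1a2 ended without western-oil library 1 (limma adjusted p = 0.0603), and that of Glul without chow-oil library 1 (0.0762) or 2 (0.0893), western-oil library 1 (0.1) or chow-CCl4 library 1 (0.055).

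**Figure D1:**
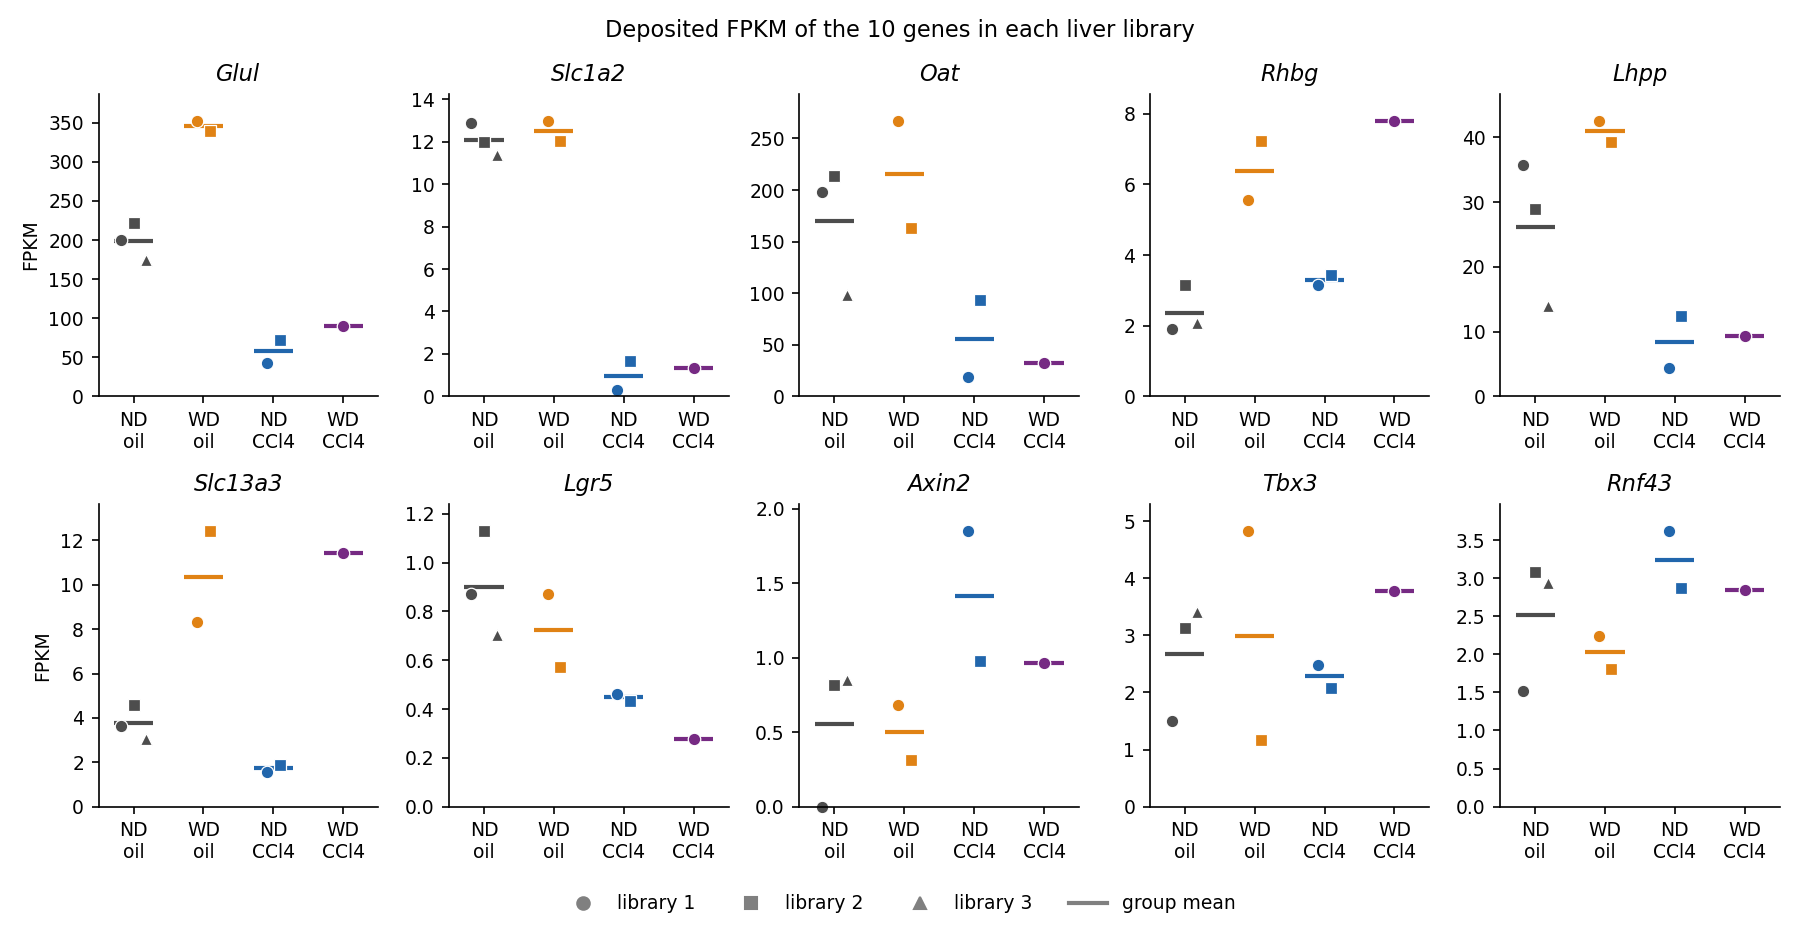
Deposited FPKM (linear axis from 0, a scale of its own in each panel) of the 10 genes in the 8 libraries, by group (ND, normal chow; WD, western diet), with a symbol for the library number and a bar for the group mean. Glul and Slc1a2 lie lower in the 3 CCl4 libraries than in the 5 oil libraries, while Rhbg and Slc13a3 are highest in the 3 western diet libraries.

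Oat, ornithine aminotransferase, which links ornithine to glutamate and proline (ENSMUSG00000030934, chromosome 7, 132557478 to 132576398), was also lowest in CCl4 libraries. It had 198, 214 and 98.1 FPKM with chow-oil and 267 and 163 with western-oil, against 18.9 and 93.2 with chow-CCl4 and 32.1 with western-CCl4. The 2 groups of normal diet came within a few FPKM of each other, 93.2 in chow-CCl4 library 2 and 98.1 in chow-oil library 3. The difference on the normal diet was -1.90 ± 0.63 and did not pass (limma adjusted p = 0.156). The size rested on which chow-CCl4 library was kept: it was -0.78 without library 1 (limma adjusted p = 0.629) and -3.02, past the threshold, without library 2 (0.0163). Over both diets the difference was -2.17 ± 0.49 (limma adjusted p = 0.145), with -1.67 (0.379) and -2.85 (0.0272) without the same libraries.

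Lhpp, a phosphatase that removes phosphate from histidine and lysine (ENSMUSG00000030946, chromosome 7, 132610638 to 132706420), is the neighbour of Oat, with 34239 bases between them. Its FPKM was 35.7, 29.0 and 14.0 with chow-oil, 42.5 and 39.3 with western-oil, 4.36 and 12.5 with chow-CCl4, and 9.36 with western-CCl4. As with Oat, chow-oil library 3 was the lowest oil library and chow-CCl4 library 1 the lowest of all. The difference on the normal diet, -1.58 ± 0.46, did not pass (limma adjusted p = 0.129). It was -0.92 without chow-CCl4 library 1 (limma adjusted p = 0.559) and -2.25, past the threshold, without library 2 (0.0324). Over both diets it was -1.74 ± 0.36 (limma adjusted p = 0.114). A long model of Fgfr2, which had at most 4.39 FPKM in any library, overlaps both genes.

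Of the 8 genes tested, 2 fell with CCl4 on the normal diet, none rose and 6 did not pass, against 0.4% of all tested genes that fell and 1.02% that rose. Their median log2 difference was -1.18, against 0.26 over all tested genes. With diet as an additive term 2 of 8 fell (Glul and Slc1a2), where 0.0347% of all genes, 4 in number, did, and as many rose. The other 2 of those 4 were Cyp2c37, a P450 of the pericentral zone, and Cd163, a scavenger receptor of macrophages. Over all 10 genes, 5 had every CCl4 library below every oil library (Glul, Slc1a2, Oat, Lhpp and Lgr5), a pattern held by 0.732% of the 16535 genes above 0 in any library. Among them, Lgr5 had 0.275 FPKM with western-CCl4, near the lowest value above 0 in that library (0.274). In a bulk sample, fewer cells of a type and less RNA per cell cannot be told apart. Hepatocyte markers summed to 28981 to 37553 FPKM with chow-oil and 44167 to 52299 with chow-CCl4, and 0 of 6 passed by limma. With median-of-ratios scaling, chosen for these sums after the data were seen, they came to 34521 to 42168 and 42694 to 43499. Alb held most of the sum (20271 ± 1593 and 35076 ± 4210 FPKM), while Apoa1 (8008 ± 1741 and 6283 ± 2049) and Apob (213.8 ± 102 and 170.2 ± 23.1) had lower means with chow-CCl4. Markers of other cells were summed in the same way, and none of those tested passed by limma. Stellate cell markers summed to 33.7 to 38.2 FPKM with chow-oil and 55.4 to 116 with chow-CCl4 (0 of 6 tested passed, and Hhip was at 0 in every library). Endothelial markers summed to 32.5 to 51.5 and 61.7 to 97.6 (0 of 9), ranges that overlapped after scaling (36.5 to 61.4 and 59.6 to 81.2). Macrophage sums, at 29.8 to 61.8 and 58.7 to 158 (0 of 7), and cholangiocyte sums, at 18.5 to 39.8 and 28.6 to 459 (0 of 3, with Krt7, Epcam and Sox9 at 0 in some libraries), overlapped. Spp1 held most of each cholangiocyte sum, at 455 FPKM in chow-CCl4 library 1 and 26.8 in library 2. Erythroid sums were 176 to 268 and 194 to 214 (0 of 4). Proliferation markers (Mki67, Top2a, Ccnb1 and Cdk1) were all at 0 with chow-oil and summed to 29.5 FPKM in chow-CCl4 library 1 and 0.501 in library 2. The part of these cells in the result was not tested.

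The western diet gave another order of the same genes. Rhbg and Slc13a3 were the 2 of 8 tested that rose, none fell and 6 did not pass, against 3.81% of all tested genes that rose and 0.599% that fell. Rhbg, a membrane channel for ammonia and ammonium (ENSMUSG00000104445, chromosome 3, 88242874 to 88254709), had 1.90, 3.14 and 2.07 FPKM with chow-oil. It had 5.56 and 7.22 with western-oil, 3.15 and 3.42 with chow-CCl4 and 7.80 with western-CCl4. All 3 western diet libraries thus lay above all 5 normal diet libraries. Without CCl4 the group mean went from 2.37 ± 0.675 (n = 3) to 6.39 ± 1.17 (n = 2), a log2 difference of 1.14 ± 0.20 (limma adjusted p = 0.0272).

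Slc13a3, which carries dicarboxylates such as succinate and alpha-ketoglutarate into cells (ENSMUSG00000018459, chromosome 2, 165405028 to 165473230), had 3.63, 4.59 and 3.05 FPKM with chow-oil and 8.33 and 12.4 with western-oil. It stood at 1.58 and 1.89 with chow-CCl4 and at 11.4 with western-CCl4, within the range of western-oil. It rose with the diet from 3.75 ± 0.777 to 10.4 ± 2.89 FPKM, a log2 difference of 1.25 ± 0.21 (limma adjusted p = 0.026). Both calls were close to the threshold and ended with the replicate number as a block. Both ended with median-of-ratios scaling (limma adjusted p = 0.055 for Rhbg and 0.0519 for Slc13a3) and with no filter (0.0655 and 0.0646). They also ended without chow-oil library 1 (0.0756 and 0.0754) or 3 (0.0757 and 0.071) and western-oil library 1 (0.107 and 0.0832) or 2 (0.275 and 0.25), and that of Slc13a3 without chow-oil library 2 (0.0577).

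After CCl4 these carriers did not pass by limma: Slc13a3 had -0.79 ± 0.21 on normal chow and -0.45 ± 0.22 over both diets (adjusted p = 0.114 and 0.421), and Rhbg 0.36 ± 0.20 and 0.33 ± 0.16 (0.287 and 0.411).

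Glul was 346 ± 8.81 FPKM with western-oil, 1.74 times its mean with chow-oil, and the difference of 0.80 ± 0.25 did not pass (limma adjusted p = 0.107). It passed without chow-CCl4 library 1 (0.042) or 2 (0.0411), both outside this comparison. Lhpp (0.72 ± 0.46, adjusted p = 0.391) and Oat (0.38 ± 0.63, 0.75) did not pass by limma. Slc1a2 had a difference of 0.05 ± 0.28 (95% confidence interval -0.59 to 0.68; limma adjusted p = 0.934), which turned to -0.20 with median-of-ratios scaling. Both western-oil libraries lay above all chow-oil libraries for 4 of the 10 genes (Glul, Rhbg, Lhpp and Slc13a3), near the 34% of genes above 0 in any library that did so. Markers of other cells moved with the diet as well: 7 macrophage markers summed to 29.8 to 61.8 FPKM with chow-oil and 248.8 to 458 with western-oil, none was at 0 in any library, and 6 of 7 rose. Endothelial markers went from 32.5 to 51.5 to 81.9 to 84.6 FPKM in sum, with 3 of 9 rising and Thbd at 0 in some libraries. Stellate cell markers had sums of 33.7 to 38.2 and 104 to 116 FPKM (2 of 6 rose), and erythroid markers 176 to 268 and 409 to 687 (2 of 4 rose). Cholangiocyte markers had 18.5 to 39.8 and 60.4 to 97.2 (0 of 3 passed), most of it Spp1, at 58.4 and 94.8 FPKM with western-oil. Proliferation markers had 0 and 0.648 to 1.44 (none tested). The part of all these cells in these results was not tested.

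**Figure D2:**
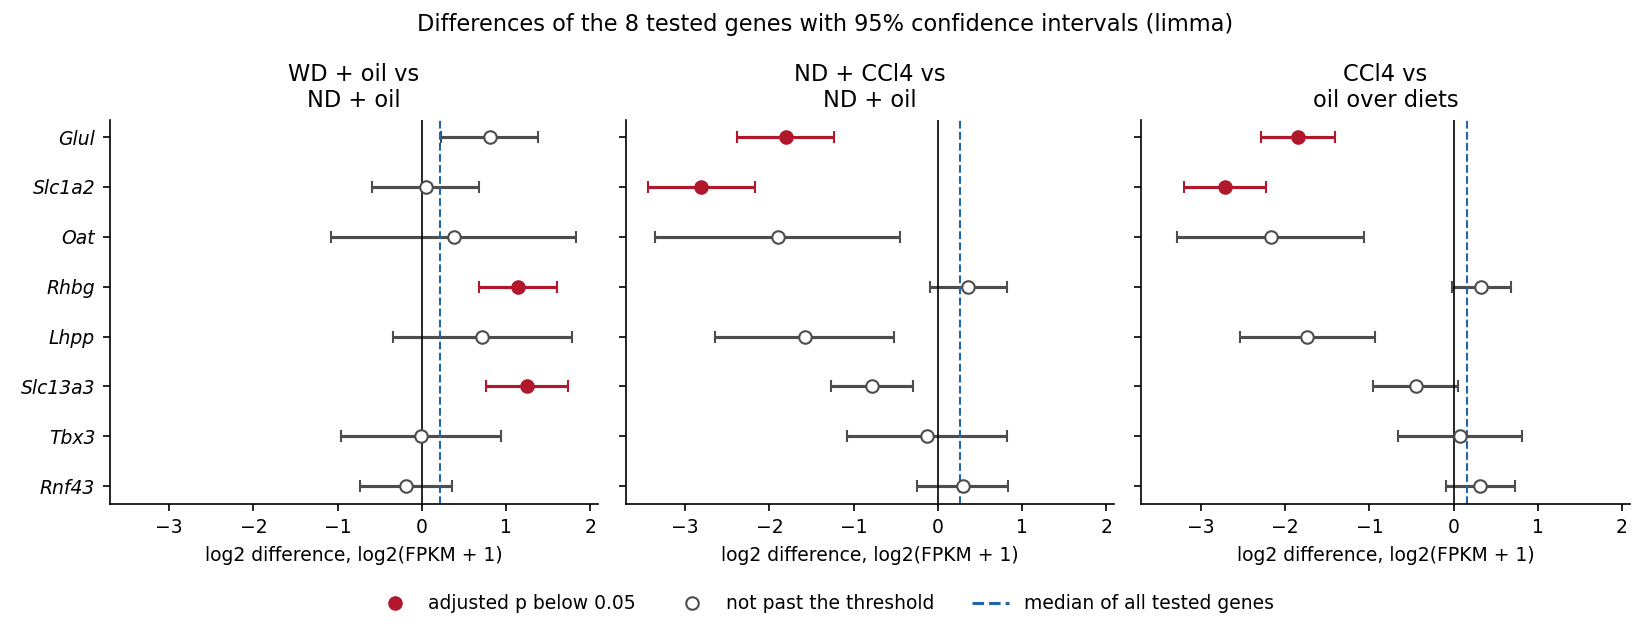
Log2 differences on log2(FPKM + 1) of the 8 genes tested, with 95% confidence intervals from limma, for the western diet against chow-oil, CCl4 against chow-oil, and CCl4 against oil with diet as an additive term. Filled red points passed an adjusted p of 0.05 (Rhbg and Slc13a3 for the diet, Glul and Slc1a2 for CCl4), and the dashed line is the median of all tested genes.

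Set directly against each other, in libraries that the tests above also used, chow-CCl4 lay below western-oil for Glul, Slc1a2 and Slc13a3. Those 3 of 8 were lower, none higher and 5 did not pass, where 0.408% of all tested genes were lower and 0.208% higher. The log2 differences were -2.61 ± 0.27 for Glul, -2.86 ± 0.30 for Slc1a2 and -2.03 ± 0.23 for Slc13a3 (limma adjusted p = 0.0163, 0.0163 and 0.0176). Western-oil stands in this comparison with 2 libraries, and without library 1 (0.143, 0.147 and 0.0969 in the same order) or library 2 (0.111, 0.111 and 0.112) none of the 3 passed by limma. Without chow-CCl4 library 1, Slc13a3 did not pass (0.0527), and with no filter none did (0.0633 for each). Lhpp (-2.30 ± 0.50, limma adjusted p = 0.112), Oat (-2.28 ± 0.69, 0.25) and Rhbg (-0.78 ± 0.22, 0.209) did not pass.

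Western-CCl4 rests on 1 library, and its spread is assumed to equal that in the rest. Set against chow-oil, Slc1a2 was the 1 gene of 8 that fell (-2.49 ± 0.35, limma adjusted p = 0.0265), none rose and 7 did not pass, against 0.261% of all tested genes that fell and 0.669% that rose. Its call ended with a pseudocount of 0.1 (limma adjusted p = 0.104), with no filter (0.0596) and without chow-oil library 1 (0.0641), 2 (0.0687) or 3 (0.0617). The call also ended without western-oil library 1 or 2. Both lie outside this comparison, and leaving them out changed the estimate of the spread and not the difference. Rhbg (1.40 ± 0.25, limma adjusted p = 0.0532) and Slc13a3 (1.40 ± 0.27, 0.067) were close to the threshold and did not pass. Glul (-1.13 ± 0.31, limma adjusted p = 0.152) did not pass. Leaving out either chow-CCl4 library, both outside this comparison, changed the estimate of the spread and not these differences. Oat (-2.29 ± 0.80, adjusted p = 0.23) and Lhpp (-1.30 ± 0.58, 0.344) did not pass by limma. With the replicate number as a block, none of the 8 genes passed against chow-oil, Slc1a2 included. In this library, then, Slc1a2, Oat and Lhpp lay within the range of chow-CCl4 and Glul between that range and chow-oil, while Slc13a3 lay within the range of western-oil and Rhbg just above it.

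Within the western diet, CCl4 gave 0 of 8 past the threshold by limma and 4 at an unadjusted p below 0.05, where 0.0434% of all tested genes passed. The differences were -1.93 ± 0.33 for Glul and -2.54 ± 0.37 for Slc1a2 (limma adjusted p = 0.226 and 0.109). They were -2.66 ± 0.84 for Oat and -2.02 ± 0.62 for Lhpp (limma adjusted p = 0.873 and 0.833). Leaving out either chow-CCl4 library, both outside this comparison, changed the estimate of the spread and not these differences, so those fits are not read here. The interaction, which asks whether the CCl4 difference depended on the diet, passed by limma for 0 of 8 genes, with 1 at an unadjusted p below 0.05 and 0.0608% of all tested genes past the threshold. That 1 was Slc13a3, with an interaction of 0.94 (95% confidence interval 0.12 to 1.75; limma adjusted p = 0.485).

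The Wnt targets and feedback genes were expressed at low levels and did not share 1 direction. Lgr5, a receptor for R-spondins (ENSMUSG00000020140, chromosome 10, 115450311 to 115587780), had 0.870, 1.13 and 0.705 FPKM with chow-oil and 0.873 and 0.572 with western-oil. It had 0.462 and 0.433 with chow-CCl4 and 0.275 with western-CCl4, so the CCl4 libraries lay below the oil libraries without overlap. The western-CCl4 value was near the lowest value above 0 in its library (0.274). Axin2, a scaffold of the complex that destroys beta-catenin and a feedback target of the pathway (ENSMUSG00000000142, chromosome 11, 108920349 to 108950783), was listed at 0 in chow-oil library 1 and at 0.813 and 0.853 FPKM in the other two. It had 0.684 and 0.311 with western-oil, 1.85 and 0.977 with chow-CCl4 and 0.960 with western-CCl4. In FPKM as deposited, every CCl4 library lay above every oil library, as in 5.15% of genes above 0 in any library. This order of Axin2 did not hold after division by the median-of-ratios factors. These were 0.84 for chow-oil library 3, 1.03 for chow-CCl4 library 2 and 1.04 for western-CCl4. Chow-oil library 3 then lay above chow-CCl4 library 2 and western-CCl4. Both genes were under the filter of 1 FPKM in 2 libraries and entered the fit without a filter, over 16535 genes. With diet as an additive term their differences were then -0.40 ± 0.13 for Lgr5 and 0.57 ± 0.24 for Axin2, and neither passed (limma adjusted p = 0.317 and 0.4).

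Rnf43, a ubiquitin ligase that removes Wnt receptors from the cell surface (ENSMUSG00000034177, chromosome 11, 87662722 to 87735539), had 1.52, 3.08 and 2.94 FPKM with chow-oil and 2.24 and 1.81 with western-oil. It had 3.61 and 2.87 with chow-CCl4 and 2.84 with western-CCl4, within or just above the range of the controls. Its differences against chow-oil were -0.19 ± 0.23 for the western diet and 0.30 ± 0.23 for CCl4 (limma adjusted p = 0.663 and 0.428). Over diets the CCl4 difference was 0.32 ± 0.18 (limma adjusted p = 0.463), and chow-CCl4 against western-oil gave 0.49 ± 0.26 (0.543). A noncoding gene inside it on the same strand, 1110028F11Rik, reached 3.04 FPKM in 1 library, and the sources used here do not say how fragments were divided between the 2.

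Tbx3, a transcription factor of the T-box family (ENSMUSG00000018604, chromosome 5, 119670669 to 119684724), had 1.49, 3.13 and 3.40 FPKM with chow-oil and 4.82 and 1.17 with western-oil. It had 2.48 and 2.08 with chow-CCl4 and 3.77 with western-CCl4. The 2 western-oil libraries held the highest and the lowest value of all 8. No difference passed by limma: the western diet gave -0.01 ± 0.41, CCl4 on normal chow -0.12 ± 0.41 and CCl4 over diets 0.07 ± 0.32 (limma adjusted p = 0.996, 0.852 and 0.915), the last turning to -0.07 with median-of-ratios scaling. Its antisense neighbour Tbx3os1 reached 6.16 FPKM, and the sources used here do not say whether counting used strand, so reads of the 2 cannot be told apart with certainty.

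Other genes of these pathways are set beside the shares of all tested genes. After CCl4 on the normal diet 1.02% of all tested genes rose and 0.4% fell, and with the western diet 3.81% rose and 0.599% fell. Of 28 other genes of glutamine, glutamate and ammonia handling, 19 were tested, and 0 passed by limma after CCl4 on the normal diet (7 at an unadjusted p below 0.05; median log2 difference 0.44, against 0.26 over all genes). With the western diet 1 of 19 fell and none rose (median 0.21, against 0.22, and -0.06 with median-of-ratios scaling). That gene was Asns, asparagine synthetase, which uses glutamine as its nitrogen donor, at 5.42 ± 2.34 FPKM with chow-oil and 0.954 ± 0.559 with western-oil (-1.69 ± 0.37, limma adjusted p = 0.0476). Slc38a2, a sodium-coupled glutamine carrier, had -0.75 ± 0.21 for CCl4 over diets and did not pass (limma adjusted p = 0.218). Gls2, the liver glutaminase of portal hepatocytes, had 92.1 ± 5.23 FPKM with chow-oil, 66.5 ± 15.2 with western-oil, 139 ± 67.4 with chow-CCl4 and 56.8 with western-CCl4, and passed in neither comparison (limma adjusted p = 0.386 for the diet and 0.325 for CCl4). Cps1, which starts the urea cycle from ammonia, had a difference of 0.60 ± 0.23 after CCl4 and -0.69 ± 0.23 with the western diet (limma adjusted p = 0.188 and 0.128).

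Ratios within a library do not change with its scaling. Glul to Gls2 sets RNA of the enzyme that makes glutamine against RNA of an enzyme that breaks it down. The ratio is not a measure of enzyme activity. It was 2.04, 2.48 and 1.96 in the chow-oil libraries and 4.56 and 6.10 with western-oil. It was 0.469 and 0.387 with chow-CCl4 and 1.58 with western-CCl4. The 4 groups did not overlap. Glul to Cyp2e1, 2 genes of the same zone, was 0.0871, 0.0920 and 0.0974 with chow-oil, 0.187 and 0.157 with western-oil, 0.0401 and 0.0535 with chow-CCl4, and 0.0872 with western-CCl4. Glul was thus lower relative to Cyp2e1 after CCl4 on the normal diet. Western-CCl4 lay below both western-oil libraries and within the range of chow-oil. Cyp2e1 itself had 2164 ± 329 FPKM with chow-oil, 2023 ± 193 with western-oil, 1211 ± 199 with chow-CCl4 and 1032 with western-CCl4. Its difference for CCl4 on the normal diet did not pass (limma adjusted p = 0.116).

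**Figure D3:**
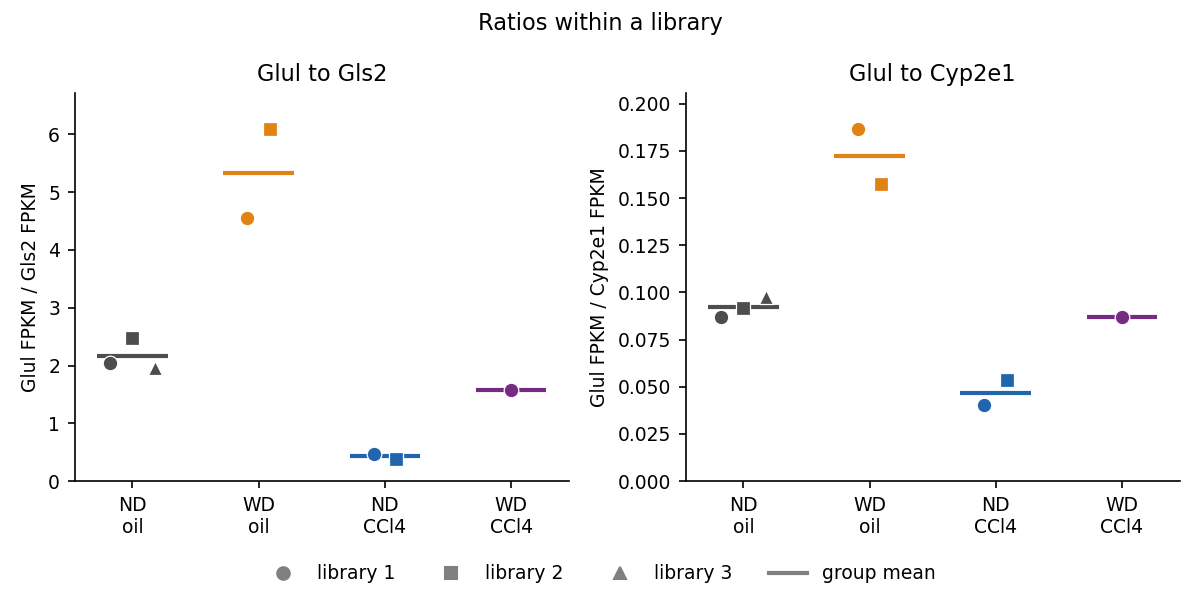
Ratio of Glul FPKM to Gls2 FPKM and to Cyp2e1 FPKM in each library (linear axes from 0), with a symbol for the library number and a bar for the group mean. Glul to Gls2 lies between 0.387 and 0.469 with chow-CCl4 and between 4.56 and 6.10 with western-oil.

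Among 13 ligands, R-spondins and genes for their secretion, 3 were tested and 5 were listed at 0 in every library. Of the tested ones none passed by limma, with 1 at an unadjusted p below 0.05 after CCl4 on the normal diet and 2 with the western diet. Rspo3, the R-spondin of the central vein, had 0.824, 0.543 and 0.742 FPKM with chow-oil, 1.28 and 1.30 with western-oil, 1.60 and 0.808 with chow-CCl4 and 0.876 with western-CCl4. Wnt2 had 0.304, 0.387 and 0.598 with chow-oil, 0.927 and 1.08 with western-oil, 1.04 and 0.700 with chow-CCl4 and 0.471 with western-CCl4. Wnt9b was listed at 0 in 6 libraries and at 0.336 and 0.421 in those of chow-CCl4. These levels are low and carry no counting error, and the endothelial marker sums given above were also higher in chow-CCl4 than in chow-oil before scaling; their part in the ligand values was not tested.

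Of 16 receptors 7 were tested, and 0 passed by limma in either comparison with chow-oil (2 at an unadjusted p below 0.05 after CCl4, 1 with the western diet). Fzd4, a frizzled receptor, came closest after CCl4, at 0.91 ± 0.18 (limma adjusted p = 0.0558). Lgr4, the second R-spondin receptor, had 5.30, 5.77 and 5.40 FPKM with chow-oil and 6.21 and 5.61 with chow-CCl4, levels several FPKM above Lgr5 in the same libraries. Znrf3, the sister of Rnf43, was under the filter, at 0.499 to 1.13 FPKM. Of 20 genes of beta-catenin destruction and transcription 16 were tested and 0 passed by limma (2 at an unadjusted p below 0.05 after CCl4, 0 with the diet). Ctnnb1, beta-catenin itself, had a difference of 0.29 ± 0.24 after CCl4 (limma adjusted p = 0.441) that turned to -0.03 with median-of-ratios scaling. Of 14 inhibitors 3 were tested and 0 passed by limma (1 at an unadjusted p below 0.05 in each comparison). Notum, a secreted enzyme that inactivates Wnt ligands, had -0.03 ± 0.16 after CCl4 and -0.46 ± 0.16 with the western diet (limma adjusted p = 0.902 and 0.14).

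Among 25 other pericentral genes after CCl4 on the normal diet, 2 rose, against 1.02% of all tested genes, and 1 fell, against 0.4%. The 25 had a median of -0.09, against 0.26 over all genes, and 22 did not pass. Their differences were below 0 for 15 of 25, against 16.0% of all tested genes, and with median-of-ratios scaling for 18 of 25 (median -0.42, against 0.00255). In western-CCl4 against chow-oil 5 of 25 fell, against 0.261% of all tested genes, and none rose, against 0.669% (median -0.49, against 0.19). These were the P450 genes Cyp2c29 (-4.22 ± 0.54), Cyp2c37 (-3.82 ± 0.49), Cyp1a2 (-2.99 ± 0.31), Cyp2c50 (-2.74 ± 0.45) and Cyp3a11 (-2.08 ± 0.32), with limma adjusted p from 0.00696 to 0.043. In western-oil against chow-oil 1 rose, against 3.81% of all tested genes, 1 fell, against 0.599%, and 23 did not pass. The median was 0.03, against 0.22, and -0.24 with median-of-ratios scaling. Cyp2c37 fell after CCl4 from 99.7 ± 16.3 to 14.8 ± 10.3 FPKM (-2.83 ± 0.39, limma adjusted p = 0.0227), while the glutathione transferase Gstm3 (3.51 ± 0.33, adjusted p = 0.0044) and Cyp3a11 (1.51 ± 0.25, 0.0365) rose by limma. With the western diet Cyp1a2 fell (-2.29 ± 0.25, limma adjusted p = 0.0111) and Aldh3a2, a fatty aldehyde dehydrogenase, rose (1.32 ± 0.23, 0.0272). Of 14 other Wnt targets tested, some of them also pericentral, 1 rose and 13 did not pass after CCl4 (median -0.08). That was the cyclin Ccnd1, at 2.45 ± 0.818 FPKM with chow-oil and 20.1 ± 13.7 with chow-CCl4 (2.47 ± 0.40, limma adjusted p = 0.034) and also rose with the western diet, to 11.3 ± 2.77 (1.85 ± 0.40, adjusted p = 0.0465 by limma). Of 20 periportal genes 1 rose and 19 did not pass after CCl4 (median 0.46), and 1 rose, 1 fell and 18 did not pass with the western diet (median -0.12). These were the lipid droplet protein Hsd17b13 after CCl4 (1.37 ± 0.24, limma adjusted p = 0.0404), and Cyp17a1 (1.84 ± 0.30, 0.0249) and the histidine ammonia-lyase Hal (-1.49 ± 0.33, 0.0466) with the diet.

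**Figure D4:**
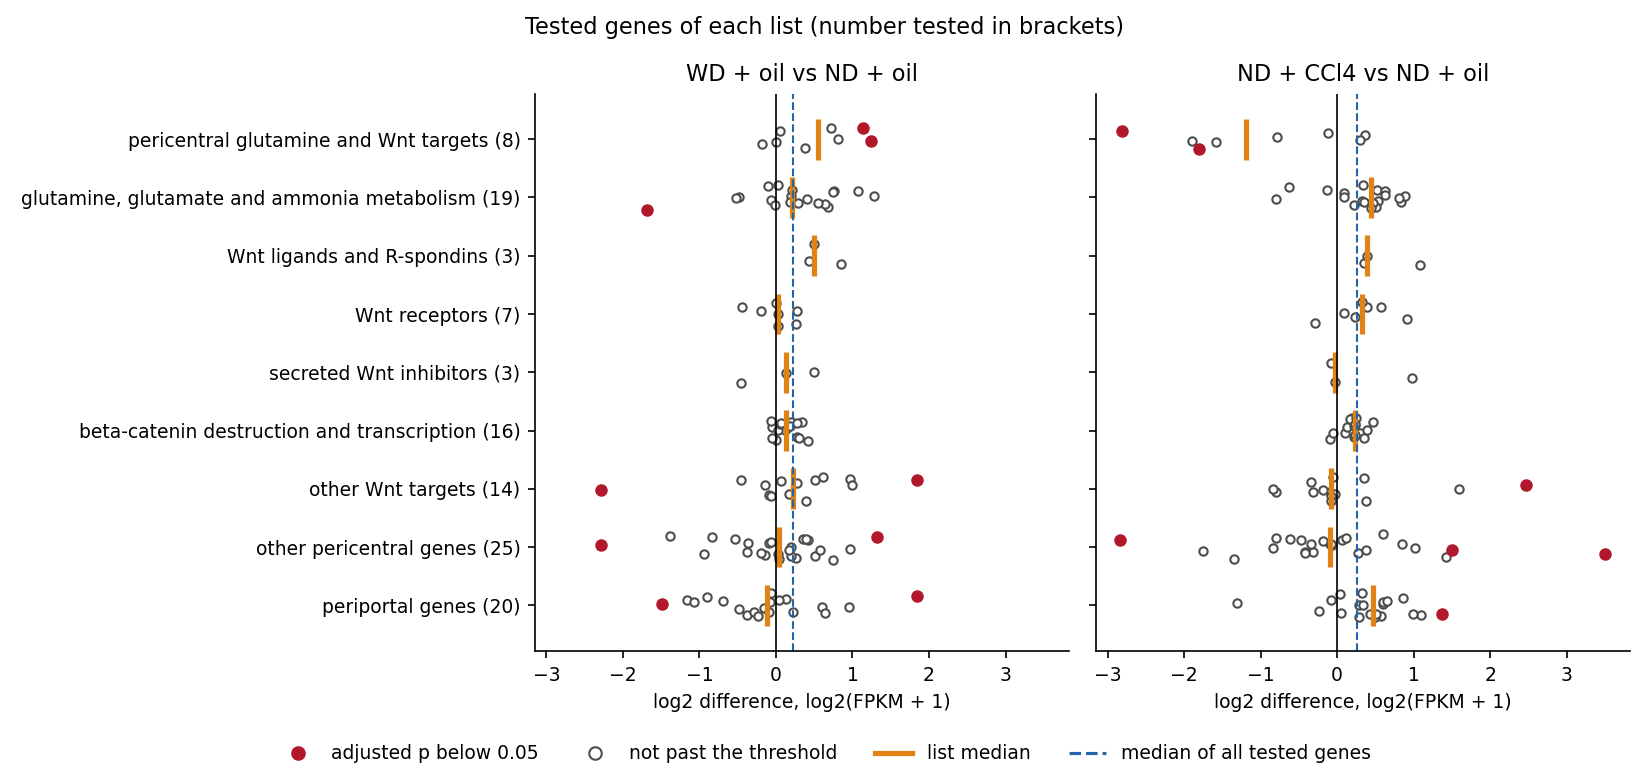
Log2 differences on log2(FPKM + 1) of the tested genes of each list for the western diet (left) and CCl4 on the normal diet (right) against chow-oil; each point is a gene, red where the limma adjusted p was below 0.05, with list medians in orange and the median of all tested genes dashed. The points' height within a row carries no value, and the first row, with a median of -1.18 after CCl4, holds the 8 tested genes described here.

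The genes whose pattern over the 8 libraries lay nearest to that of Glul were found by the root mean square difference of log2(FPKM + 1), each gene centred on its own mean. Lhpp was the nearest of all tested genes (0.341), Slc1a2 the seventh (0.516) and Oat the 24th (0.600), while Slc13a3 ranked 186 and Rhbg, Tbx3 and Rnf43 ranked 4865, 6668 and 9737. The 5 nearest genes outside the set were Fasn (0.398), fatty acid synthase; Cd163 (0.443); Slc25a25 (0.493), a mitochondrial carrier of ATP-Mg and phosphate; Arl4d (0.505), a small GTPase; and Cyp8b1 (0.516), the sterol 12-alpha-hydroxylase of bile acid synthesis. Fasn had 61.5, 63.6 and 32.1 FPKM with chow-oil, 88.3 and 87.4 with western-oil, 13.3 and 38.1 with chow-CCl4 and 23.7 with western-CCl4. Like Lhpp, it was lowest among the oil libraries in chow-oil library 3. Cd163 was at 1.20 to 2.45 FPKM in the oil libraries and listed at 0 in all 3 CCl4 libraries. This ranking describes likeness over 8 libraries, which share 4 groups, and carries no test.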

How the data were processed

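Liver RNA of 8 libraries was analysed from 1 table of FPKM that the authors deposited, with 1 column per library, matched by its name to the labels. The kit was TruSeq Stranded mRNA, per the labels' protocols. The submitters' processing notes name StringTie 2.1.0, HISAT2 2.2.1, cutadapt 3.7, FastQC 0.11.9 and the build GRCm38, without their roles. FPKM sums ran from 514832 to 612747, the lowest value above 0 from 0.252 to 0.318, and values identical between libraries numbered 0.

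The 11514 genes that reached 1 FPKM in 2 or more libraries were tested on log2(FPKM + 1) with limma 3.58.1 in R 4.3.3 (trend), two-sided, over 7 comparisons, with 4 residual degrees of freedom in the model of group means. Alternatives were a pseudocount of 0.1, no filter beyond a value above 0, median-of-ratios scaling, the replicate number as a block, and each library left out in turn. The script was tested on simulated data. Coordinates come from GENCODE M21 (GRCm38), promoters from RefSeq (GRCm38.p6).

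The 10 genes and the lists were chosen with earlier results of these data known. Named beside them were, of each list, up to 4 genes with the smallest p for CCl4 over diets, up to 4 more that passed for CCl4 or the western diet against chow-oil, 10 set genes (Ctnnb1, Wnt2, Wnt9b, Rspo3, Lgr4, Znrf3, Cyp2e1, Cyp1a2, Gls2 and Cps1) and the 5 nearest to Glul in pattern; those of the rule not printed did not pass for CCl4 over diets. One hepatocyte marker symbol was not matched. Protein sequences were not used here.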

Additional observations from a re-analysis of the deposited data

How the results depend on the processing

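Counts are given in the order western-oil, chow-CCl4 and western-CCl4 against chow-oil, then chow-CCl4 and western-CCl4 against western-oil, CCl4 over diets, and the interaction. Of the 8 genes tested, 2, 2, 1, 3, 0, 2 and 0 passed by limma, with 508, 164, 107, 71, 5, 8 and 7 of all genes. With no filter these were 0, 0, 0, 0, 0, 2 and 0 of the 8 and 121, 18, 171, 6, 69, 7 and 17 of all. With median-of-ratios scaling they were 0, 2, 1, 3, 0, 2 and 0 of the 8 and 289, 90, 77, 49, 5, 6 and 0 of all. With a pseudocount of 0.1 they were 2, 2, 0, 3, 0, 2 and 0 of the 8 and 345, 148, 43, 61, 0, 7 and 3 of all. With the replicate number as a block they were 0, 1, 0, 3, 0, 0 and 0 of the 8 and 32, 49, 6, 55, 0, 1 and 2 of all. Number 3 occurs in chow-oil alone, so the block fits that library exactly and takes it out of the differences. The block also leaves fewer residual degrees of freedom. Same-numbered libraries correlated at -0.279 to -0.0140 in their deviations from the group means. In groups of 2 or 3 libraries such deviations depend on each other. These values therefore cannot decide whether the numbers pair the libraries. Leaving out 1 library in turn gave 0 to 3, 1 to 4, 0 to 4, 0 to 3, 0 to 1, 0 to 3 and 0 to 0 of the 8. Of all genes it gave 4 to 1159, 22 to 1165, 36 to 486, 1 to 122, 1 to 16, 0 to 164 and 0 to 168. The difference of Slc1a2 for the western diet turned to -0.20 with median-of-ratios scaling and ran from -0.00129 to 0.10 without single libraries. For Tbx3 it was 0.15 with the block for the diet (-0.72 to 0.71 without single libraries), 0.0286 with the block for CCl4 (-0.38 to 0.0286), and -0.0698 with median-of-ratios scaling for CCl4 over diets (-0.17 to 0.25). The cause of these changes was not tested. No fit without the western-CCl4 library could give the comparisons that need it. Depth is unknown, so differences in genes under 1 FPKM, such as Lgr5 and Axin2, carry no counting error here.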
